A study of Mus musculus with 12 samples.

Results

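Lung epithelial transcripts were followed in RNA from lung Cx3cr1+ macrophages of mice. The set held 10 genes, chosen by symbol, out of 52636 genes in the count table. All 10 symbols had 1 row each in the deposited gene table, and all 10 genes were among the 16679 genes that passed the filter on low counts. The libraries fell into 3 groups of 4. Bleomycin KO libraries came from mice given bleomycin and labelled with an Il4ra (IL-4 receptor alpha chain) deletion. Bleomycin WT libraries came from mice given bleomycin and labelled wild type at Il4ra. Saline WT libraries came from mice given saline and labelled wild type at Il4ra. Bleomycin is a drug that damages the lung and is used to induce fibrosis in mice. Saline mice with the deletion were not analysed here. The labels give no age, sorting scheme or deletion driver, and do not tell whether each library is its own animal. A p-value here then speaks of the variation among libraries, possibly technical, and not of animals.

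The alveolar surface is lined by thin type 1 cells and by cuboidal type 2 cells, which make the surfactant proteins. Club cells of the airways secrete secretoglobins. Macrophages are not a known source of surfactant protein C or of club cell secretoglobin, but they take up surfactant and dying epithelial cells. In a bulk library, RNA from engulfed cells, RNA carried over from broken cells, a few sorted epithelial cells and transcription by the macrophages themselves cannot be told apart, nor can fewer cells of a type from less RNA per cell. In what follows a level is in CPM, counts relative to a TMM-scaled library total, a fold change is the first group over the second on the log2 scale, and a gene is called at a Benjamini-Hochberg adjusted p under 0.05 over all genes tested by edgeR's quasi-likelihood test.

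Total counts were 8514384 to 18051113 in the 8 bleomycin libraries and 60598 to 10168525 in the saline WT libraries. Saline WT 2 was the shallowest library, where 4830 genes had a count, against 17835 to 30283 genes elsewhere. A level of 3 counts, the limit that a count of 0 allows, was 32.4 CPM in saline WT 2 and 0.185 to 0.730 CPM in the other libraries. Saline WT 2 and bleomycin WT 4 were the libraries known from earlier results to stand apart, and for each comparison the calls and the median fold change are also given without them. Their highest Spearman correlations with any other library were 0.50 and 0.74. Il4ra averaged 332 ± 104 CPM in bleomycin KO, 355 ± 203 in bleomycin WT and 177 ± 127 in saline WT (SD, n = 4 each). Its log2 fold change between bleomycin KO and bleomycin WT was -0.09 with an SE of 0.58 and an adjusted p of 0.9998 in edgeR, so the level of Il4ra did not separate the genotype labels, and counts over the whole gene cannot show which exons were deleted. Macrophage genes were abundant in every library: the summed level of 14 macrophage identity genes was 52976 to 73132 CPM in bleomycin KO, 35869 to 56022 in bleomycin WT and 16517 to 38550 in saline WT.

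The 10 epithelial transcripts took a small share of every library, and a larger one in all 4 saline WT libraries than in any of the 8 bleomycin libraries. Their summed level was 564, 169, 268 and 124 CPM in bleomycin KO replicates 1 to 4, 709, 127, 261 and 747 CPM in bleomycin WT, and 2427, 1913, 1501 and 1883 CPM in saline WT. The highest bleomycin library, bleomycin WT 4, lay below the lowest saline library, saline WT 3. The bleomycin groups overlapped each other over most of their range. As shares of all counts these were 0.0127% to 0.0533% in bleomycin KO, 0.0114% to 0.0740% in bleomycin WT and 0.144% to 0.292% in saline WT. The shallow library saline WT 2 had 177 such counts, a share of 0.292% with an exact 95% binomial interval of 0.251% to 0.338%. The largest bleomycin share, 0.0740% in bleomycin WT 1, had an interval of 0.0723% to 0.0757%. These intervals cover counting error only.

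**Figure D1:**
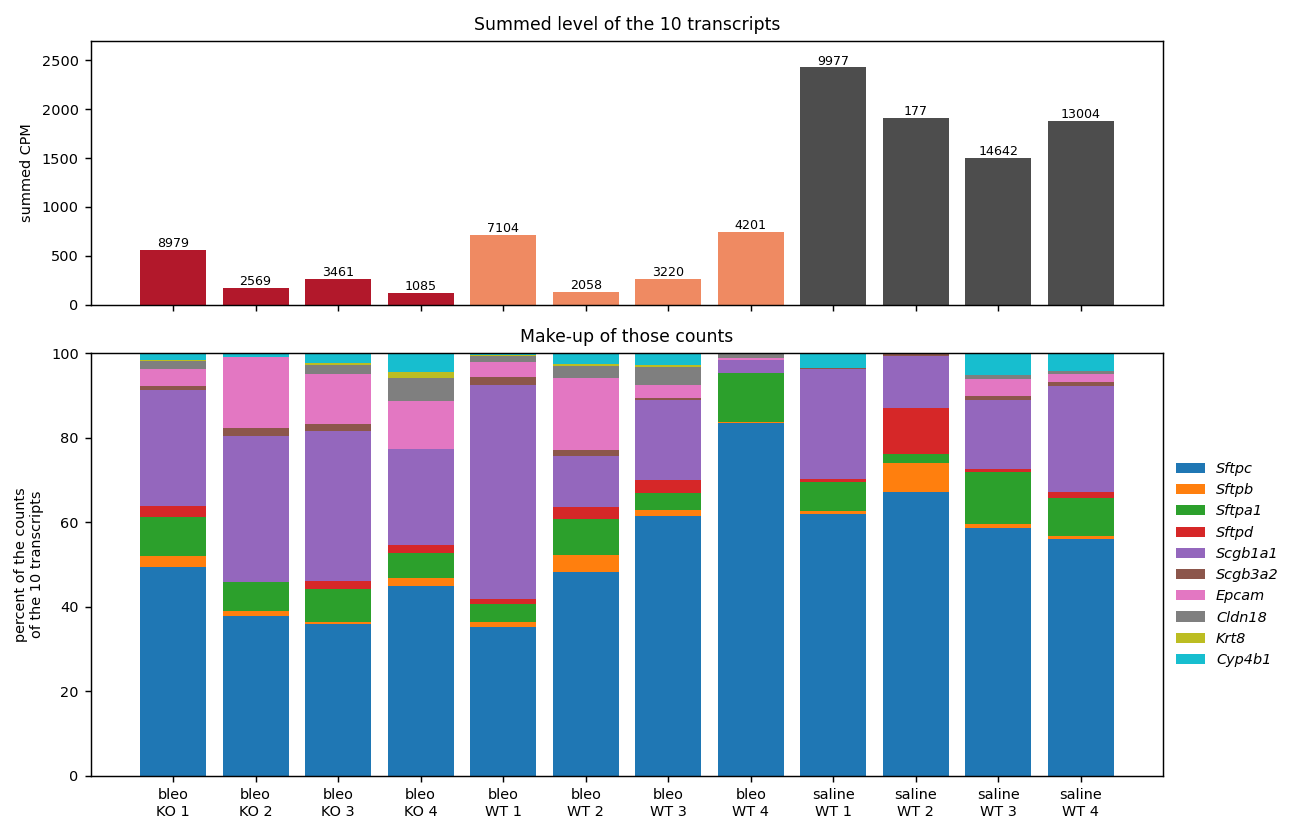
Upper panel: summed CPM (TMM-scaled) of the 10 lung epithelial transcripts in each of 12 libraries, with the number of counts behind each bar printed above it. Lower panel: percent of those counts from each transcript. All 4 saline WT bars stand at 1501 CPM or more and all bleomycin bars at 747 CPM or less; Sftpc and Scgb1a1 make up 60.2% to 88.1% of the counts in every library.

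Sftpc and Scgb1a1 supplied most of this signal. Together they made up 60.2% to 88.1% of the counts of the 10 genes in every library. The share of Sftpc was 35.8% to 49.3% in bleomycin KO, 35.2% to 83.5% in bleomycin WT and 56.0% to 67.2% in saline WT. The share of Scgb1a1 was 22.7% to 35.6% in bleomycin KO, 3.17% to 50.7% in bleomycin WT and 12.4% to 26.0% in saline WT. Epcam, in contrast, gave a mean share of 11.02% ± 5.21 in bleomycin KO, 6.11% ± 7.43 in bleomycin WT and 1.498% ± 1.93 in saline WT (SD, n = 4 each). Its share was 4.24% to 16.9% in bleomycin KO, 0.500% to 17.1% in bleomycin WT and 0% to 4.05% in saline WT. The bleomycin WT range overlapped both others. The bleomycin KO and saline WT ranges did not overlap, but 4.24% and 4.05% lay close. A share depends on the counts of the other genes too, so it does not give the level of Epcam. In CPM, Epcam averaged 24.4 ± 7.65 in bleomycin KO and 24.3 ± 29.7 in saline WT, and the libraries of these groups overlapped. Differences in share were not tested. Per kilobase of exonic sequence, Scgb1a1 (177 ± 115 CPM per kb) and Sftpc (154 ± 130) led in bleomycin KO, Sftpc (340 ± 305) and Scgb1a1 (235 ± 348) in bleomycin WT, and Sftpc (1470 ± 339) and Scgb1a1 (835 ± 402) in saline WT. Per kilobase, Sftpc was above Scgb1a1 in 2 of 4 bleomycin KO libraries, 3 of 4 bleomycin WT libraries and 4 of 4 saline WT libraries. The other 8 genes lay between 0.625 and 11.98 CPM per kb in bleomycin KO, between 0.431 and 12.04 in bleomycin WT and between 0.370 and 50.8 in saline WT. Cldn18 and Krt8 were the lowest in each group. The mean ± SD ranges of neighbours in this order of 8 overlapped, except that Krt8 was below Cldn18 in bleomycin WT.

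**Figure D2:**
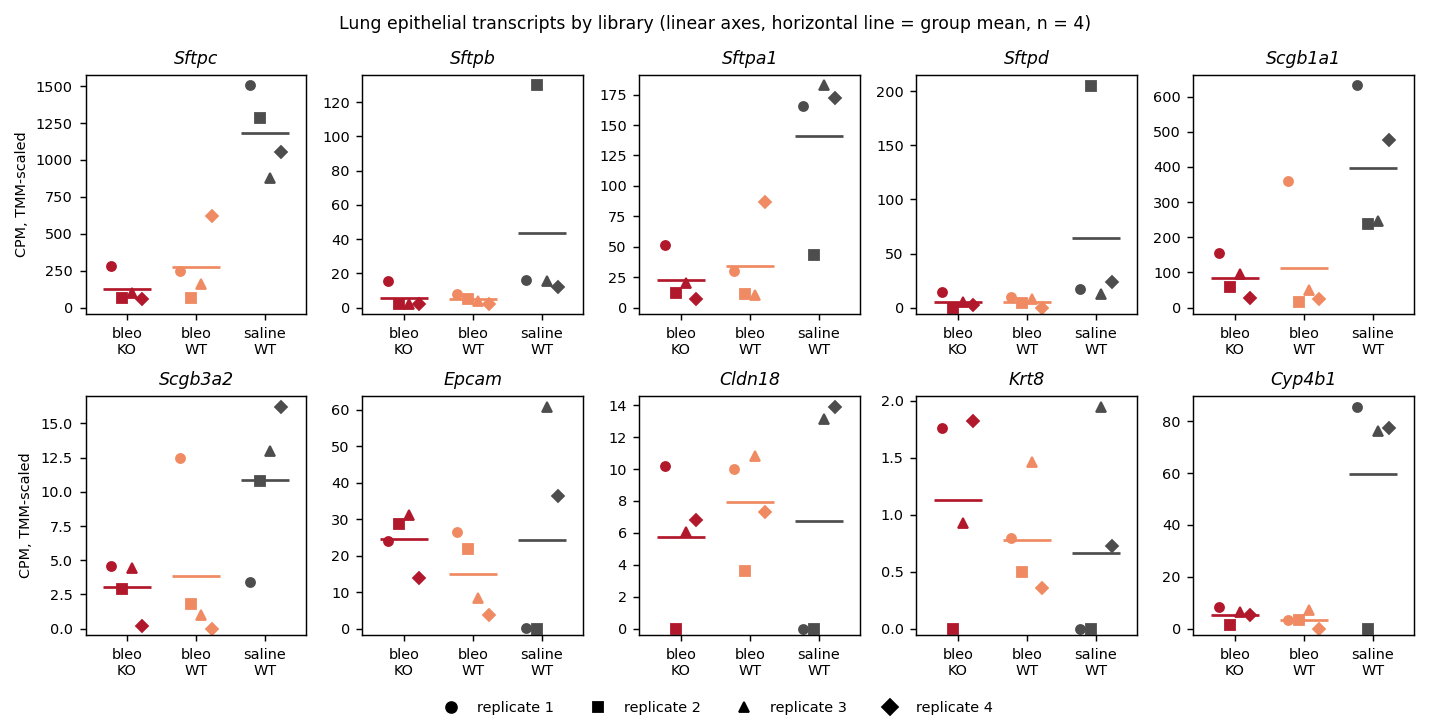
CPM (TMM-scaled, linear axes that differ between panels) of each of the 10 transcripts in bleomycin KO, bleomycin WT and saline WT libraries; each symbol is 1 library, its shape gives the replicate number and the horizontal line is the mean of 4. Sftpc is at 880 CPM or more in all saline WT libraries and at 623 CPM or less in all bleomycin libraries, while Epcam, Cldn18 and Krt8 overlap between all groups.

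The surfactant proteins were read first. Sftpc, the small hydrophobic surfactant protein made by type 2 cells, lies on chromosome 14 (70520949 to 70524081, minus strand, GRCm38; ENSMUSG00000022097). It stood at 278, 64.1, 95.9 and 55.6 CPM in bleomycin KO replicates 1 to 4, at 250, 61.2, 160 and 623 CPM in bleomycin WT and at 1506, 1286, 880 and 1055 CPM in saline WT. Every bleomycin library was below every saline library, and the bleomycin groups overlapped. Bleomycin WT 4 was the nearest to the saline libraries, and bleomycin KO 1 was the highest of its group. The log2 fold change was -2.11 (SE 0.66, adjusted p = 0.225, edgeR) for bleomycin WT against saline WT and -3.26 (SE 0.69, adjusted p = 0.189, edgeR) for bleomycin KO against saline WT. Neither passed the threshold.

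Sftpb, the other hydrophobic surfactant protein and one that type 2 cells need to form lamellar bodies, lies on chromosome 6 (72304610 to 72314371, plus strand; ENSMUSG00000056370). It stood at 15.6, 1.85, 1.78 and 2.28 CPM in bleomycin KO, at 7.69, 5.13, 3.98 and 1.96 CPM in bleomycin WT and at 15.8, 130, 15.7 and 11.9 CPM in saline WT. The value of 130 CPM in saline WT 2 rests on 12 counts, with an exact Poisson interval of 67.0 to 227 CPM. All bleomycin WT libraries were below all saline WT libraries, while bleomycin KO 1 reached the saline range. The log2 fold change for bleomycin WT against saline WT was -2.95 (SE 1.05, adjusted p = 0.249, edgeR) with saline WT 2, and -1.39 (SE 0.87, adjusted p = 0.490) without saline WT 2 and bleomycin WT 4.

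Sftpa1 and Sftpd encode the collectins of surfactant, soluble lectins that bind microbes. Sftpa1 lies on chromosome 14 (41131782 to 41136452, plus strand; ENSMUSG00000021789). It stood at 51.5, 11.6, 20.4 and 7.29 CPM in bleomycin KO, at 30.1, 10.8, 10.5 and 86.4 CPM in bleomycin WT and at 166, 43.2, 183 and 173 CPM in saline WT. The 3 deeper saline libraries were above all bleomycin libraries, and saline WT 2, with 4 counts, fell among them. The log2 fold change was -2.08 (SE 0.79, adjusted p = 0.274, edgeR) for bleomycin WT against saline WT and -2.67 (SE 0.81, adjusted p = 0.310) for bleomycin KO against saline WT. Sftpd lies on chromosome 14 too (41172214 to 41185149, minus strand; ENSMUSG00000021795). It stood at 14.0, 0, 5.42 and 2.28 CPM in bleomycin KO, at 9.29, 3.77, 8.28 and 0 CPM in bleomycin WT and at 17.5, 205, 12.3 and 24.0 CPM in saline WT. All bleomycin WT libraries were below all saline WT libraries, and bleomycin KO 1 was above the lowest saline library. The value of 205 CPM rests on 19 counts (exact Poisson interval 124 to 321 CPM), and without saline WT 2 and bleomycin WT 4 the log2 fold change for bleomycin WT against saline WT was -1.36 (SE 1.24, adjusted p = 0.640), against -3.38 (SE 1.47, adjusted p = 0.315) with all libraries in edgeR.

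The surfactant transcripts did not keep one proportion. A ratio of counts within a library does not depend on the scaling. Among libraries with at least 10 counts of both genes, there were 17.8 to 53.9 Sftpc counts per Sftpb count in bleomycin KO, 11.9 to 319 in bleomycin WT and 9.92 to 95.3 in saline WT. Bleomycin WT 4 was the extreme case: it had 3507 Sftpc counts and 486 Sftpa1 counts, with 11 counts of Sftpb and 0 of Sftpd. Its CPM of Sftpc and Sftpa1 were the highest among bleomycin libraries, at a TMM factor of 0.579. Bleomycin KO 1 had more counts of both genes, 4431 of Sftpc and 820 of Sftpa1, in a deeper library. Sftpc counts per Sftpa1 count spread less, at 4.69 to 7.63 in bleomycin KO, 5.66 to 15.3 in bleomycin WT and 4.81 to 9.08 in 3 saline WT libraries. These ratios are descriptions and were not tested.

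The secretoglobins mark club cells. Scgb1a1, the club cell secretory protein, lies on chromosome 19 (9083636 to 9087958, minus strand; ENSMUSG00000024653). It stood at 156, 58.8, 95.3 and 28.0 CPM in bleomycin KO, at 360, 15.3, 49.5 and 23.6 CPM in bleomycin WT and at 632, 238, 245 and 475 CPM in saline WT. All bleomycin KO libraries were below all saline WT libraries, and of the bleomycin WT libraries only replicate 1 reached the saline range. The log2 fold change was -1.84 (SE 0.86, adjusted p = 0.339, edgeR) for bleomycin WT against saline WT and -2.24 (SE 0.87, adjusted p = 0.459) for bleomycin KO against saline WT. Without bleomycin WT 1 the first of these was -3.72. Scgb3a2, a secretoglobin of the airway epithelium, lies on chromosome 18 (43764289 to 43767399, plus strand; ENSMUSG00000038791). It stood at 4.58, 2.90, 4.41 and 0.228 CPM in bleomycin KO, at 12.5, 1.79, 0.974 and 0 CPM in bleomycin WT and at 3.41, 10.8, 13.0 and 16.2 CPM in saline WT. The groups overlapped, and the value of 10.8 CPM in saline WT 2 is 1 count. Bleomycin WT 1 was the highest bleomycin library for both secretoglobins, whereas bleomycin WT 4 was the highest for Sftpc and Sftpa1. There were 1.01 to 1.98 Sftpc counts per Scgb1a1 count in bleomycin KO, 0.695 to 26.4 in bleomycin WT and 2.22 to 5.41 in saline WT.

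Epcam and Krt8 are made by many epithelial cells, and Cldn18 by the alveolar epithelium. None of these genes followed the surfactant pattern. Epcam, an epithelial adhesion molecule, lies on chromosome 17 (87635979 to 87651129, plus strand; ENSMUSG00000045394). It stood at 23.9, 28.7, 31.3 and 13.9 CPM in bleomycin KO, at 26.5, 21.7, 8.28 and 3.73 CPM in bleomycin WT and at 0.243, 0, 60.8 and 36.4 CPM in saline WT. Saline WT had both the lowest and the highest libraries. Saline WT 1 had 1 Epcam count beside 6192 Sftpc counts, whereas bleomycin KO 2 had 435 Epcam counts beside 972 Sftpc counts. The log2 fold change was -0.85 (SE 1.02, adjusted p = 0.737, edgeR) for bleomycin WT against saline WT and -0.15 (SE 1.01, adjusted p = 0.980) for bleomycin KO against saline WT, with 95% intervals of -3.01 to 1.32 and -2.30 to 2.00.

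Cldn18, a tight junction claudin of the alveolar epithelium, lies on chromosome 9 (99689461 to 99717267, minus strand; ENSMUSG00000032473). It stood at 10.2, 0, 6.03 and 6.84 CPM in bleomycin KO, at 9.99, 3.58, 10.8 and 7.29 CPM in bleomycin WT and at 0, 0, 13.1 and 13.9 CPM in saline WT. Saline WT 3 and 4 were above all 8 bleomycin libraries, while saline WT 1, with 3534193 counts in all, and the shallow saline WT 2 had 0 Cldn18 counts. Krt8, a keratin that transitional alveolar cells raise after injury in mice, lies on chromosome 15 (101996698 to 102004482, minus strand; ENSMUSG00000049382). It had 116 counts in all 12 libraries together, and stood at 1.76, 0, 0.928 and 1.82 CPM in bleomycin KO, at 0.799, 0.494, 1.46 and 0.355 CPM in bleomycin WT and at 0, 0, 1.95 and 0.724 CPM in saline WT. A difference in Krt8 was not detectable at this depth, with a 95% interval of -3.02 to 2.68 on the log2 scale for bleomycin WT against saline WT.

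Cyp4b1, a cytochrome P450 monooxygenase abundant in the lung, had the sharpest separation among the deep libraries. It lies on chromosome 4 (115624725 to 115647723, minus strand; ENSMUSG00000028713). It stood at 8.41, 1.45, 6.34 and 5.36 CPM in bleomycin KO, at 3.40, 3.34, 7.14 and 0 CPM in bleomycin WT and at 85.6, 0, 76.4 and 77.3 CPM in saline WT. The 3 deeper saline libraries were far above all 8 bleomycin libraries. Saline WT 2 had 0 counts, which allows up to 32.4 CPM, so a level like that of the bleomycin libraries could not be seen there. That limit is also below the 76.4 to 85.6 CPM of the other saline libraries, so their level was not reached in saline WT 2. The log2 fold change was -4.17 (SE 1.09, adjusted p = 0.201, edgeR) for bleomycin WT against saline WT and -3.55 (SE 1.06, adjusted p = 0.303) for bleomycin KO against saline WT. Without saline WT 2 and bleomycin WT 4, Cyp4b1 averaged 5.41 ± 2.88 CPM in bleomycin KO (n = 4), 4.63 ± 2.19 in bleomycin WT and 81.3 ± 7.40 in saline WT (SD, n = 3 each). In that fit it fell in bleomycin WT against saline WT (log2 fold change -4.13, SE 0.62, adjusted p = 0.0246, edgeR) and in bleomycin KO against saline WT (-3.91, SE 0.54, adjusted p = 0.0188). These calls leave out the saline library that had no Cyp4b1 count.

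Sequence is shown for Sftpb, Sftpa1, Cyp4b1 and Epcam. Against saline WT, Sftpb, Sftpa1 and Cyp4b1 were lower in both bleomycin groups at an unadjusted p under 0.05 (edgeR), and Epcam was not. RefSeq's promoter table (GRCm38.p6) held 7 promoters of 6 of the 10 genes. The 250 bases before the start are given 5′ to 3′ on the gene's strand, at chr6:72304360-72304609 (plus) for Sftpb, chr14:41131538-41131787 (plus) for Sftpa1, chr4:115647722-115647971 (minus) for Cyp4b1 and chr17:87635729-87635978 (plus) for Epcam. Capitals mark letters searched on both strands for NKX2-1 (CTCAAG or CAAGTG), the homeobox factor that controls surfactant genes, and for forkhead factors (TGTTTAC or TGTTTGC), so a match on the other strand reads as its reverse complement. The NKX2-1 words share CAAG and could overlap, but no matches did in these sequences.
Sftpb: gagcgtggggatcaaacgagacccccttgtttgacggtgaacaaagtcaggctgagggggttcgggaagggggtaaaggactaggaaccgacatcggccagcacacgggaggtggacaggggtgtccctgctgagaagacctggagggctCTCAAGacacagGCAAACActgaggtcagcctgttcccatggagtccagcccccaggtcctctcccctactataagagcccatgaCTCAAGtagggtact
Sftpa1: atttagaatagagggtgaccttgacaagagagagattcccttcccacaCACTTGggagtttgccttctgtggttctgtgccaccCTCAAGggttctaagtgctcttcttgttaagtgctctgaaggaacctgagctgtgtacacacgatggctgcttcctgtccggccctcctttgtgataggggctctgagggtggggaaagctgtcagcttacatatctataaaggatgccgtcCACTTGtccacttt
Cyp4b1: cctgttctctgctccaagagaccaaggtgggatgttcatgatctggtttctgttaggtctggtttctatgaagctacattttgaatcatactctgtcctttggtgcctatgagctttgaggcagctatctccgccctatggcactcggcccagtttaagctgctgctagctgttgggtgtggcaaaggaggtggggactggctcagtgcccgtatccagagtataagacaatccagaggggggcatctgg
Epcam: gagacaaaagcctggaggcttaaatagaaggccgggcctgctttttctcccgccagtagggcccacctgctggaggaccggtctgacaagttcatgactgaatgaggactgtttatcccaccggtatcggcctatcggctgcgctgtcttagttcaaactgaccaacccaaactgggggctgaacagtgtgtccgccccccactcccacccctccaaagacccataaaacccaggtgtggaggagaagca
Sftpb held 2 NKX2-1 matches and 1 forkhead match, Sftpa1 held 3 NKX2-1 matches, and Cyp4b1 and Epcam held 0 of either. Cldn18, which like Epcam did not follow the surfactant pattern, held 1 forkhead match in each of its promoters, not shown here. Its promoter at chr9:99710064-99710313 also held 1 NKX2-1 match. By that threshold the matches were not confined to genes lower after bleomycin. The fitted log2 fold changes of Cldn18 against saline WT were still negative, at -0.01 for bleomycin WT and -0.47 for bleomycin KO. NKX2-1 letters were in 3 of the 7 promoters and in 22.6% of 32851 mouse promoters of the same length. Forkhead letters were in 3 of the 7 and in 7.29% of all. C/EBP letters (TTGCNNAA) were in 0 of the 7 and in 9.56% of all. A match describes letters and is not a binding site. Counts of such factors are given for those in the lists, with the forkhead factor Foxj1 described later among ciliated genes. Nkx2-1 had 42 counts over the bleomycin KO libraries, 8 over bleomycin WT and 14 over saline WT. The forkhead factor Foxa2 had 2 counts over bleomycin KO, 22 over bleomycin WT and 0 over saline WT. Foxa1, another forkhead factor, had 61 counts over bleomycin KO, 26 over bleomycin WT and 193 over saline WT.

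For bleomycin WT against saline WT, the question was what injury did to epithelial RNA in the macrophage fraction with Il4ra intact. The fitted log2 fold changes of all 10 genes were negative, with a median of -1.96 beside 0.08 for all genes tested, but mean CPM was lower for 8 of 10, since Cldn18 and Krt8 had slightly higher means in bleomycin WT. In edgeR 0 of 10 were called, where 0.0240% of all genes were called. At an unadjusted p under 0.05, 6 of 10 were lower, namely Sftpc, Sftpb, Sftpa1, Sftpd, Scgb1a1 and Cyp4b1, against 6.19% of all genes. All bleomycin WT libraries were below all saline WT libraries for 3 of 10, namely Sftpc, Sftpb and Sftpd, against 0.929% of all genes.

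The call depended on the tool and the libraries. DESeq2 called Cyp4b1 and Sftpc lower (2 of 10, against 2.41% of the genes it tested). Limma-voom with sample quality weights called Cyp4b1, Sftpa1 and Sftpc lower (3 of 10, against 1.01%). Without a filter on low counts edgeR called Cyp4b1, Sftpc and Sftpd lower (3 of 10, against 1.04%). Without saline WT 2 and bleomycin WT 4 it called Cyp4b1 (1 of 10, against 0.144%), and the median of the 10 was -1.37 beside -0.14 for all genes. Limma-voom without weights called 0.

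For bleomycin KO against saline WT, which shares its saline libraries with the comparison above, 9 of 10 fitted fold changes were negative, with a median of -2.46 beside 0.04 for all genes. In edgeR 0 of 10 were called, where 0.0180% of all genes were called. At an unadjusted p under 0.05 the same 6 symbols were lower, against 6.07% of all genes. All bleomycin KO libraries were below all saline WT libraries for Sftpc and Scgb1a1, 2 of 10 against 1.04% of all genes. DESeq2 called Cyp4b1, Sftpa1 and Sftpc lower (3 of 10, against 1.84%), and so did limma-voom with quality weights (against 0.869%). Without a filter on low counts edgeR called Cyp4b1, Scgb1a1, Sftpa1, Sftpc and Sftpd lower (5 of 10, against 1.54%). Without saline WT 2 and bleomycin WT 4 it called Cyp4b1 and Sftpc (2 of 10, against 0.266%), with a fold change of -3.25 for Sftpc (SE 0.61, adjusted p = 0.0490, edgeR) and a median of the 10 of -1.80 beside -0.15 for all genes. Bleomycin and the deletion cannot be told apart in this comparison.

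For bleomycin KO against bleomycin WT, the question was whether Il4ra altered epithelial RNA after injury. No difference passed the test. In edgeR 0 of 10 were called, where 0% of all genes were called, and DESeq2, limma-voom and limma-voom with quality weights also called 0 of the 10. At an unadjusted p under 0.05, 0 of 10 were lower, against 3.69% of all genes. The groups overlapped for all 10, against 0.594% of all genes with every bleomycin KO library below every bleomycin WT library. The fold changes had a median of -0.15 beside -0.01 for all genes. Sftpc had the largest of the 10, -1.15 (SE 0.64, adjusted p = 0.9998, edgeR), with a 95% interval of -2.51 to 0.22, and Epcam stood at 0.70 with an interval of -1.44 to 2.84. Without saline WT 2 and bleomycin WT 4 Sftpc averaged 123 ± 102 CPM in bleomycin KO (n = 4) and 158 ± 96.2 in bleomycin WT (SD, n = 3), and its fold change was -0.36; the median of the 10 was then -0.21 beside -0.02 for all genes, and 0 were called. These intervals do not show that the groups are alike.

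**Figure D3:**
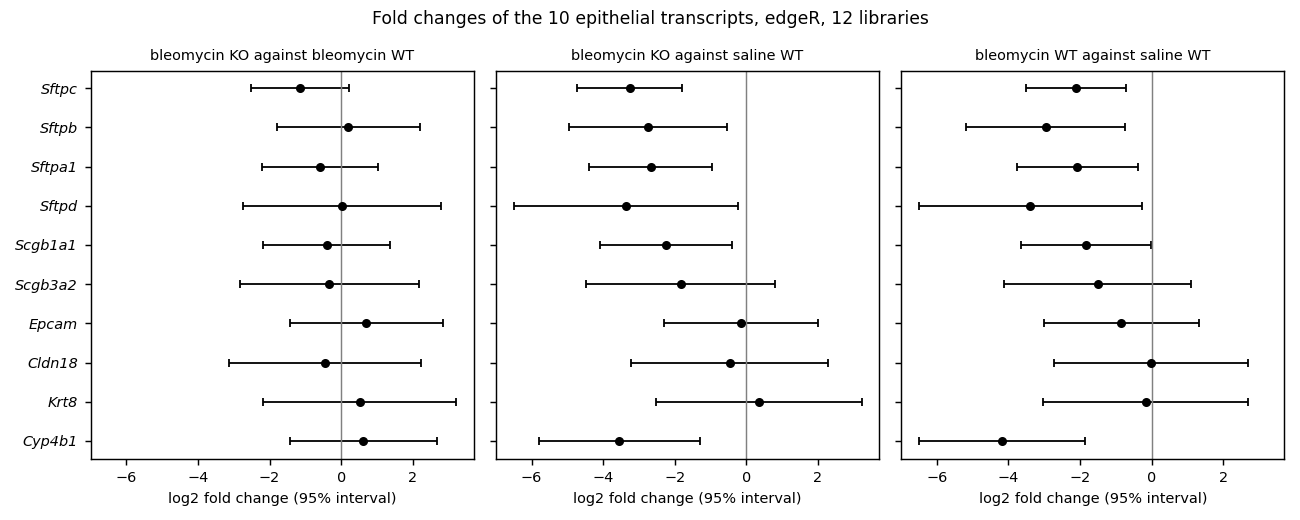
Log2 fold changes (points) with 95% intervals (bars) of the 10 transcripts in the 3 comparisons, from 1 edgeR fit of 12 libraries; negative values are lower in the first group named. Against saline WT the intervals of Sftpc, Sftpb, Sftpa1, Sftpd, Scgb1a1 and Cyp4b1 lie below 0 before adjustment, and between bleomycin KO and bleomycin WT all intervals cross 0.

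Other lung epithelial genes did not move as one with these. Of 64 further genes in 5 lists (type 2, type 1, club and secretory, ciliated, and general epithelial), 48 were tested. For bleomycin WT against saline WT, 35 of 48 had negative fold changes (median -1.04) and 0 were called in edgeR, and for bleomycin KO against saline WT 37 of 48 (median -0.86) and 0. Between bleomycin KO and bleomycin WT 25 of 48 were negative (median 0.00) and 0 were called. At an unadjusted p under 0.05 there were 15 of 48 for bleomycin WT against saline WT (against 14.7% of all genes), of which 12 lower. There were 10 of 48 for bleomycin KO against saline WT (against 9.03%), of which 9 lower, and 2 of 48 for bleomycin KO against bleomycin WT (against 3.88%), of which 1 lower. DESeq2 called 8 of them for bleomycin WT against saline WT, against 3.73% of the genes it tested, 5 for bleomycin KO against saline WT, against 2.41%, and 0 for bleomycin KO against bleomycin WT, against 0%.

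The summed levels of the type 2 and type 1 lists overlapped between all groups, while single genes within them went different ways. The summed level of 11 other type 2 genes was 414 to 559 CPM in bleomycin KO, 358 to 844 in bleomycin WT and 259 to 770 in saline WT. Napsa, Lpcat1 and Dram1 had the highest means of the 11 in every group, so the sum mostly reflects these genes. Napsa, the protease that processes surfactant protein precursors, averaged 222 ± 14.9 CPM in bleomycin KO, 199 ± 29.2 in bleomycin WT and 297 ± 246 in saline WT (SD, n = 4 each), and had 0 counts in saline WT 2. Lpcat1, an enzyme of surfactant lipid synthesis, reached 617 CPM in bleomycin WT 4. Of the 11 genes, 8 had negative fold changes for bleomycin WT against saline WT (median -1.13) and 7 for bleomycin KO against saline WT (median -0.47). Slc34a2, the phosphate transporter of type 2 cells, averaged 4.92 ± 8.36 CPM in bleomycin KO, 4.87 ± 4.10 in bleomycin WT and 55.9 ± 24.0 in saline WT (SD, n = 4 each). It was called lower in both bleomycin groups against saline WT by edgeR without a filter. S100g, a calcium-binding protein, averaged 1.11 ± 0.641 CPM in bleomycin KO, 0.166 ± 0.173 in bleomycin WT and 8.94 ± 9.06 in saline WT. DESeq2 called it in bleomycin WT against saline WT. Lamp3, Cxcl15, Hc and Chia1 also had lower means in both bleomycin groups than in saline WT. Abca3 and Etv5, of the same list, had higher means after bleomycin. Abca3 averaged 46.9 ± 22.6 CPM in bleomycin KO, 47.1 ± 43.4 in bleomycin WT and 30.4 ± 23.7 in saline WT. Etv5 averaged 11.4 ± 2.06 CPM in bleomycin KO, 17.4 ± 9.71 in bleomycin WT and 9.61 ± 6.56 in saline WT. The 11 type 1 genes summed to 184 to 282 CPM in bleomycin KO, 213 to 671 in bleomycin WT and 173 to 293 in saline WT. For bleomycin WT against saline WT 6 of the 11 had positive and 5 negative fold changes, with a median of 0.51, which was -0.69 without saline WT 2 and bleomycin WT 4; for bleomycin KO against saline WT 7 were negative (median -0.74). Emp2, a membrane protein abundant in type 1 cells, averaged 18.4 ± 5.95 CPM in bleomycin KO, 11.06 ± 6.65 in bleomycin WT and 61.03 ± 22.8 in saline WT. Col4a3, a basement membrane collagen, averaged 3.08 ± 2.39 CPM in bleomycin KO, 1.46 ± 1.29 in bleomycin WT and 20.5 ± 18.9 in saline WT. DESeq2 called both in bleomycin WT against saline WT. Clic5 averaged 2.63 ± 3.76 CPM in bleomycin KO, 3.85 ± 2.74 in bleomycin WT and 21.5 ± 16.6 in saline WT. Rtkn2 averaged 3.42 ± 2.69 CPM in bleomycin KO, 1.68 ± 1.57 in bleomycin WT and 12.7 ± 7.90 in saline WT. In the other direction Pdpn, which inflammatory macrophages also make, was higher after bleomycin, at 67.3 ± 10.3 CPM in bleomycin KO and 136 ± 98.2 in bleomycin WT against 6.69 ± 7.42 in saline WT. Its fold change for bleomycin WT against saline WT was 4.06 (SE 0.73, adjusted p = 0.0915, edgeR), and it was called without saline WT 2 and bleomycin WT 4 (3.29, SE 0.54, adjusted p = 0.0371).

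The club and ciliated lists summed higher in every saline WT library than in any bleomycin library, and the general epithelial list did not. The 11 other club and secretory genes summed to 435 to 513 CPM in bleomycin KO, 410 to 667 in bleomycin WT and 746 to 2454 in saline WT. Hp, or haptoglobin, also a neutrophil transcript, led this list at 207 ± 52.3 CPM in bleomycin KO, 290 ± 183 in bleomycin WT and 1060 ± 773 in saline WT. The 11 ciliated genes summed to 170 to 229 CPM in bleomycin KO, 149 to 215 in bleomycin WT and 259 to 772 in saline WT. Most of that was Tppp3, a tubulin-binding protein, while the ciliary regulator Foxj1 had 12 counts over bleomycin KO, 10 over bleomycin WT and 25 over saline WT. Scaled for depth, Foxj1 averaged 0.199 CPM in bleomycin KO, 0.193 in bleomycin WT and 0.919 in saline WT. The 13 tested of 20 general epithelial genes had negative fold changes in 12 for bleomycin KO and 10 for bleomycin WT against saline WT, and the list summed to 219 to 292 CPM in bleomycin KO, 81.0 to 303 in bleomycin WT and 97.3 to 616 in saline WT. Cdh1, or E-cadherin, averaged 55.3 ± 27.5 CPM in bleomycin KO, 70.9 ± 47.1 in bleomycin WT and 18.03 ± 20.2 in saline WT. Krt19, a keratin of simple epithelia, was at 21.0 ± 5.497 CPM in bleomycin KO, 12.4 ± 10.6 in bleomycin WT and 179 ± 120 in saline WT. It was called without saline WT 2 and bleomycin WT 4 in bleomycin WT against saline WT (-3.86, SE 0.43, adjusted p = 0.0154, edgeR) and in bleomycin KO against saline WT (-3.49, SE 0.38, adjusted p = 0.0111). General epithelial genes at or near 0 over saline WT included Cldn4 and Foxa2 with 0 counts, and over bleomycin KO Foxa2 with 2 and Cldn4 and Rab25 with 4 counts each.

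Lists of non-epithelial markers differed in level too. The 11 neutrophil genes summed to 1250 to 2043 CPM in bleomycin KO, 623 to 1706 in bleomycin WT and 2710 to 30950 in saline WT. All 11 had negative fold changes against saline WT in both bleomycin groups, with medians of -3.32 for bleomycin KO and -3.18 for bleomycin WT, and 0 were called in edgeR; none is at 0 in a group. The order of the saline libraries differed: saline WT 1 had the lowest neutrophil sum, 2710 CPM, and the highest sum of the 10 epithelial genes, 2427 CPM, while saline WT 3 had 30950 and 1501 CPM. The 13 endothelial genes summed to 211 to 344 CPM in bleomycin KO, 176 to 763 in bleomycin WT and 497 to 936 in saline WT, with 13 of 13 negative for bleomycin KO and 11 of 13 for bleomycin WT against saline WT. Macrophage identity genes were higher in bleomycin libraries for 9 of 14 in both comparisons. The part of any of these cell types, or of the lower depth of the saline libraries, in the levels of the epithelial transcripts was not tested.

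**Figure D4:**
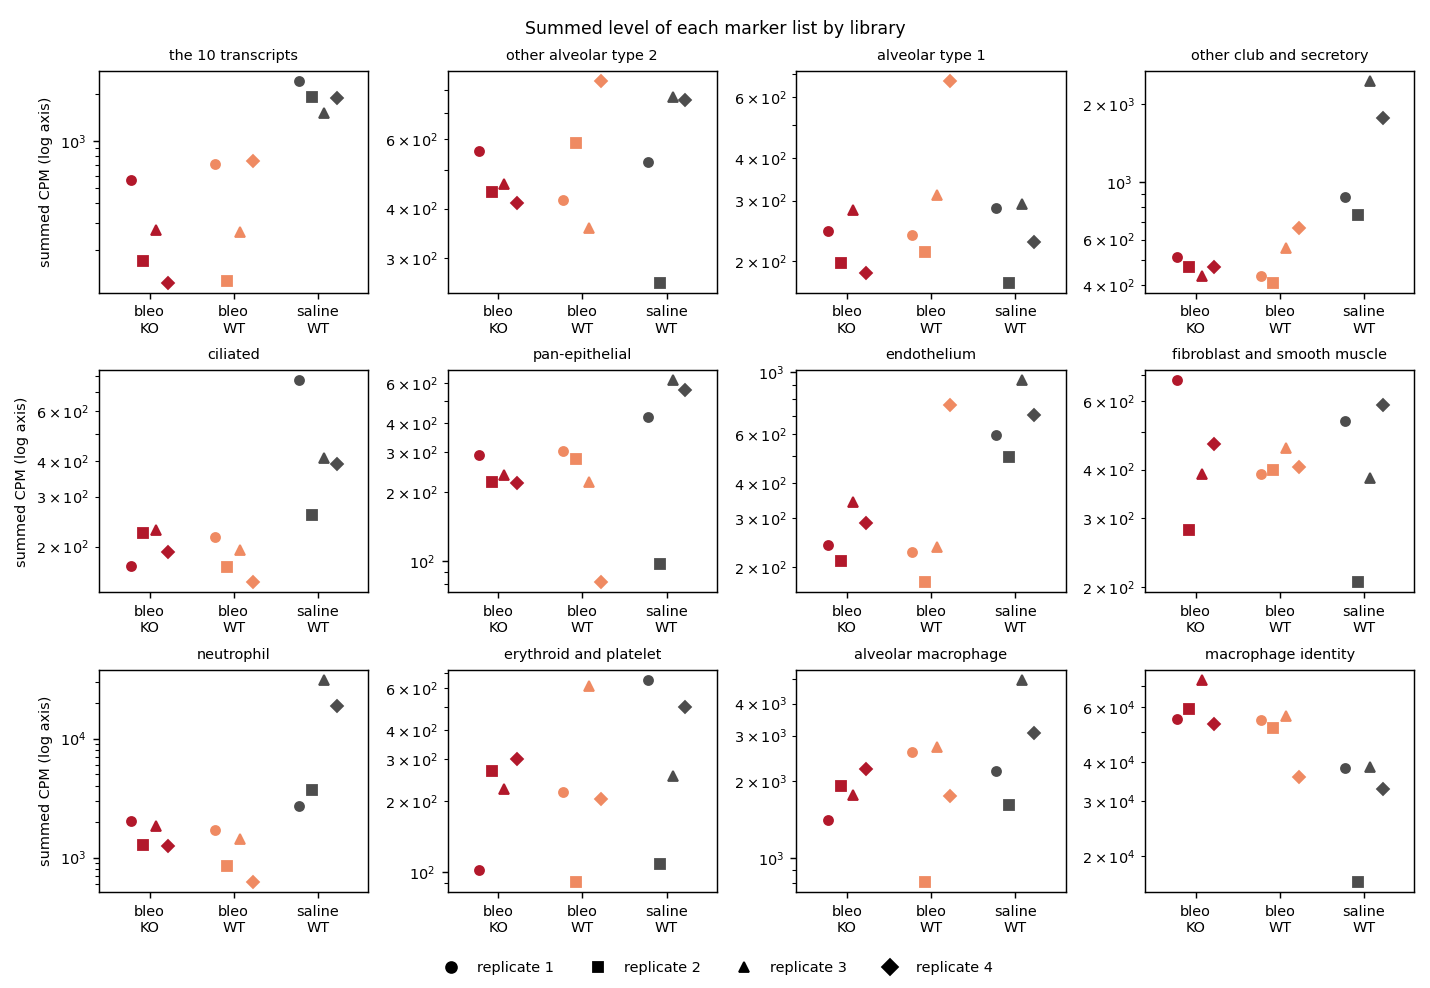
Summed CPM (log axes that differ between panels) of the 10 transcripts and of 11 marker lists in bleomycin KO, bleomycin WT and saline WT libraries; each symbol is 1 library and its shape gives the replicate number. Saline WT is above both bleomycin groups for the 10 transcripts, the club and secretory, ciliated and neutrophil lists, and overlaps them for type 1 and other type 2 genes.

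Genes with the most similar pattern over the 12 libraries were named for 3 of the transcripts, by the Spearman correlation of log2(CPM + 1) among 9283 genes with a mean of at least 10 CPM. The libraries share group and depth, so the correlation is a description. For Cyp4b1 they were Fmo1, a flavin monooxygenase (0.98), Sec14l3, a lipid-binding protein of the ciliated list (0.98), and Rhoj, a small GTPase of endothelium (0.95). Fmo1 stood at 7.79, 0.857, 7.27 and 6.27 CPM in bleomycin KO, at 6.39, 1.98, 17.3 and 0.533 CPM in bleomycin WT and at 62.3, 0, 40.6 and 41.1 CPM in saline WT. For Scgb1a1 they were Slpi, a secreted protease inhibitor (0.89), the kinase Stk17b (0.87) and coagulation factor F5 (0.85). For Sftpc they were Ptprd, a receptor phosphatase (0.92), Ncam1, a neural adhesion molecule (0.88), and the lincRNA Gm20342 (0.87). These 3 reached a mean of 10 CPM only through saline WT 2: over the other 11 libraries Ptprd averaged 4.59 CPM, Ncam1 4.98 CPM and Gm20342 5.80 CPM, and their correlations with Sftpc were 0.90, 0.85 and 0.85. None of the genes most like Sftpc or Scgb1a1 was another of the 64 lung epithelial genes listed. Many of those 64 had a mean below 10 CPM and could not be named, and only the top 3 genes were taken. Their absence thus does not show that the other epithelial genes had unlike patterns.

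**Figure D5:**
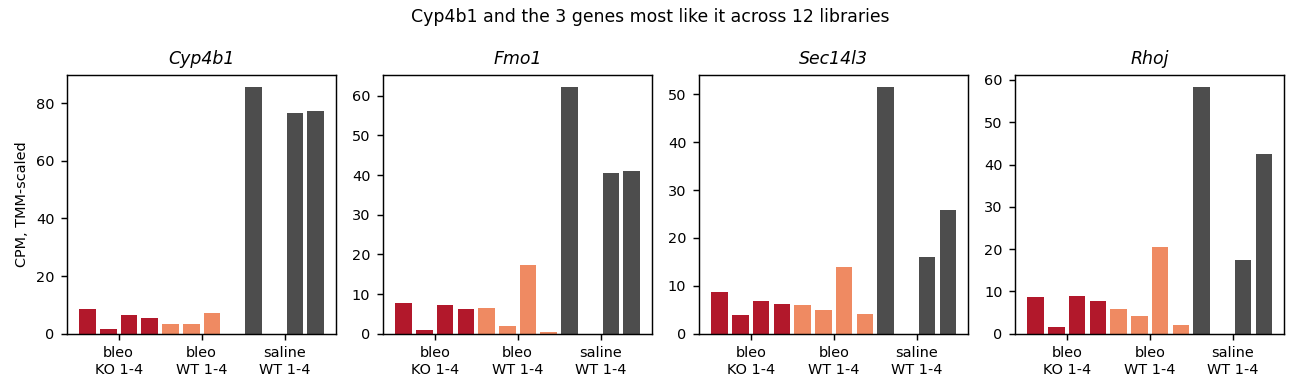
CPM (TMM-scaled, axes that differ between panels) of Cyp4b1 and of the 3 genes with the highest Spearman correlation with it, in bleomycin KO, bleomycin WT and saline WT replicates 1 to 4 from left to right within each group. In all 4 genes saline WT 1, 3 and 4 are the high libraries, apart from bleomycin WT 3, which passes saline WT 3 for Rhoj, and saline WT 2 is at 0.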

How the data were processed

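RNA from lung Cx3cr1+ macrophages was sequenced in 12 libraries, whose titles give treatment and genotype. Full-length cDNA was amplified with a SMART-Seq v4 kit, tagmented with Nextera XT and read single-end on a NovaSeq, per the labels' protocols, which name no step that marks strand. The submitters' processing notes name GSNAP, Partek, limma, GRCm38 and mm10, without versions. The deposited table holds raw counts per gene made by the authors, and a deposited gene table gives symbols and exonic size in bases. The treatment of reads with several matches was not given in the sources used here. A design text on cultured cells, which does not describe these samples, was left aside.

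Counts of the 16679 genes kept by filterByExpr were fitted with edgeR 4.0.16 (R 4.3.3), with TMM scaling and robust quasi-likelihood dispersions, over all 12 libraries with a term for group alone. Adjusted p-values are Benjamini-Hochberg values over these genes. SE is the fold change (log2) over the root of F; 95% intervals use the fit's total degrees of freedom. CPM uses the same scaled library sizes. Alternatives were other scaling, no filter, DESeq2 1.42.0, limma-voom (limma 3.58.1) with and without quality weights, the groups compared alone, a replicate block, each library left out, and 10 libraries. No 2 libraries were alike within sampling noise (chi-square per degree of freedom at least 18.6). PCR copies are not independent molecules, so counting intervals and floors cover counting error only. The fit was tested on simulated data. The genes and lists were chosen with earlier results of these data known. Outside the 10, the text draws on Il4ra and the 3 genes most like Sftpc, Scgb1a1 and Cyp4b1. It also names some, not all, of the 2 genes of each list with the highest mean CPM per kilobase over 12 libraries. Other genes were chosen after their values were seen. These were the factors of the searched motifs, Foxj1, Cldn4, Rab25, Cdh1, Slc34a2, S100g, Abca3, Etv5, Emp2, Col4a3, Clic5 and Rtkn2. Igfbp2, Aqp5, Col3a1, Col1a2, Dram1, Lamp3, Cxcl15, Hc and Chia1 were chosen in the same way. Nextera-tagged counts depend on transcript length, so the 10 genes were put in order of level per kilobase. Shares, ratios of counts and list sums were not corrected for length.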

Additional observations from a re-analysis of the deposited data

Results flagged for a closer look

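Dixon's test at its 95% critical value was run on 33 groups of 4 libraries (10 epithelial genes and their summed level). Of these, 7 had 1 library far from the others. For independent, normally distributed values chance alone flags about 1 in 20 groups. CPM from few counts need not be normal and the groups share libraries, so the 7 cannot be set against that rate. In bleomycin KO, replicate 1 had 15.6 CPM of Sftpb against 1.78 to 2.28 in the others. In bleomycin WT, replicate 1 had 360 CPM of Scgb1a1 against 15.3 to 49.5 in the others, and 12.5 CPM of Scgb3a2 against 0 to 1.79.

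The other 4 were all saline WT 2, the library with 60598 counts. It had 130 CPM of Sftpb (12 counts) against 11.9 to 15.8 in the other saline WT libraries, 205 CPM of Sftpd (19 counts) against 12.3 to 24.0, 43.2 CPM of Sftpa1 (4 counts) against 166 to 183, and 0 CPM of Cyp4b1 against 76.4 to 85.6, where a count of 0 allows up to 32.4 CPM.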

How the results depend on the processing

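Between bleomycin KO and bleomycin WT, 0 of the 10 genes and 0 of the other lung epithelial genes were called under every alternative run. Against saline WT, DESeq2 size factors, no scaling, unweighted limma-voom, fits of the groups compared alone, the replicate block and each of 12 fits without a single library (range 0 to 0) also called 0 of the 10 and 0 of the others. For bleomycin WT against saline WT the number called of the 10 was 3 without a filter, 2 in DESeq2, 3 in limma-voom with quality weights and 1 without saline WT 2 and bleomycin WT 4; of the other lung epithelial genes it was 4, 8, 7 and 2. For bleomycin KO against saline WT the numbers were 5, 3, 3 and 2, and 4, 5, 3 and 3. Same-numbered libraries correlated in their deviations from the group means at -0.18 to 0.05 and none correlated best with its own number, so the numbers are not taken as pairs.

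The fold changes of Sftpc, Sftpb, Sftpa1, Sftpd, Scgb1a1, Scgb3a2 and Cyp4b1 against saline WT were negative under every alternative. Without a single library, for bleomycin WT against saline WT, they ranged from -2.80 to -1.76 for Sftpc, -3.31 to -1.54 for Sftpb (-1.54 without saline WT 2), -3.76 to -1.65 for Sftpd and -3.72 to -1.41 for Scgb1a1. The directions that changed under an alternative are given next, and the cause was not tested. For bleomycin WT against saline WT, Epcam was 0.092 in limma-voom and -1.28 to 0.15 without a single library; Cldn18 was 0.00066 without a filter, 0.91 in limma-voom, 0.87 with the replicate block and -0.49 to 0.52 without a single library; Krt8 was 0.68 with the replicate block and -0.64 to 1.17 without a single library. For bleomycin KO against saline WT, Epcam was 1.02 in limma-voom and -0.59 to 0.84 without a single library, Cldn18 -0.94 to 0.071 without a single library, and Krt8 -0.80 in limma-voom, -0.55 with quality weights and -0.12 to 1.69 without a single library. For bleomycin KO against bleomycin WT, Sftpb was -0.36 in limma-voom, -0.62 with quality weights, -0.059 with the replicate block, -0.063 without saline WT 2 and bleomycin WT 4 and -1.26 to 0.54 without a single library; Sftpa1 was 0.021 with quality weights, 0.40 without those libraries and -1.38 to 0.41; Sftpd was -0.032 with DESeq2 size factors, -0.013 with no scaling, -0.031 in DESeq2, -0.87 in limma-voom, -1.49 with quality weights, -0.40 without those libraries and -1.08 to 0.44; Scgb1a1 was 0.57 in limma-voom, 0.41 with the replicate block and -0.89 to 1.52; Scgb3a2 was 0.67 in limma-voom, 0.36 with the replicate block and -0.73 to 1.65; Krt8 was -0.49 in limma-voom and -0.29 with quality weights. Scaling moved the median fold change of all genes for bleomycin WT against saline WT to -0.09 with DESeq2 size factors and -0.24 with no scaling, against 0.08 with TMM. Depth limits Krt8, Scgb3a2 and every value of saline WT 2.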

Other observations

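Saline WT 2 had 6356 CPM of Ncam1, a neural adhesion molecule, and 1838 CPM of Ptprd, a receptor phosphatase, against at most 22.4 and 24.3 CPM in any other library. The 12 fibroblast and smooth muscle genes did not separate the groups, with sums of 280 to 677 CPM in bleomycin KO, 389 to 453 in bleomycin WT and 205 to 586 in saline WT. Inmt, a methyltransferase of lung fibroblasts, was at 27.3 ± 13.8 CPM in bleomycin KO, 18.1 ± 7.31 in bleomycin WT and 183 ± 124 in saline WT (SD, n = 4 each). Col3a1, a fibrillar collagen, was at 115 ± 83.5 CPM in bleomycin KO, 116 ± 24.99 in bleomycin WT and 15.8 ± 19.0 in saline WT. Col1a2, another, was at 50.7 ± 36.8 CPM in bleomycin KO, 37.3 ± 31.5 in bleomycin WT and 13.7 ± 15.7 in saline WT. The 11 alveolar macrophage genes summed to 1409 to 2226 CPM in bleomycin KO, 807 to 2715 in bleomycin WT and 1611 to 4938 in saline WT.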
